A study of Mus musculus with 2 samples.

Results

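The genes described here are the major histocompatibility complex (MHC) class II genes of the mouse and Ciita, the gene of their master regulator. They were chosen by gene symbol, from a list of 8, and all 8 were found among the 55536 annotated genes. They are the chain genes H2-Aa, H2-Ab1 and H2-Eb1, the peptide editor genes H2-DMa, H2-DMb1 and H2-DMb2, the invariant chain gene Cd74, and Ciita. The study sequenced ribosomal RNA-depleted total RNA from the nucleoplasm of bone marrow-derived macrophages. These are primary cells of C57BL/6J mice, and both libraries come from cells given 100 ng/ml Lipid A for 30 min. Lipid A is the part of bacterial lipopolysaccharide that the receptor TLR4 senses. The samples form 1 group of 2 libraries. Replicate 1 was made from 1 µg of RNA and replicate 2 from 500 ng. The labels call them biological replicates but cite 1 donor entry for both, and they do not describe separate cultures, so the spread between them may be technical. Unstimulated cells and whole-cell RNA were not analysed here. Every value is therefore a level in stimulated nuclei, and no change with stimulation can be read from it.

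MHC class II molecules are pairs of an alpha and a beta chain that carry peptides from the endosome to the cell surface for CD4 T cells. The invariant chain fills the groove of a new pair and guides it to the endosome, where proteases cut it down to a short remnant. The H2-DM dimer then exchanges that remnant for other peptides. Ciita does not bind DNA itself. It docks onto factors that sit on the shared promoter elements of these genes, called the X, X2 and Y boxes, and its own transcription sets the level of the pathway in most cells. Macrophages hold little class II at rest and raise Ciita after interferon gamma.

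Gene levels are given in expected counts, which are read numbers that share out ambiguous reads, and in TPM, a share of all transcripts that corrects for their length. The libraries held 15846212 and 14874879 expected counts on annotated genes in replicates 1 and 2. Counts on the 8 genes summed to 4381 in replicate 1 and 4153 in replicate 2. That is 0.0276% of the first library, with a 95% Wilson interval of 0.0268 to 0.0285%. It is 0.0279% of the second, with an interval of 0.0271 to 0.0288%, so the intervals overlap. They cover counting error at most and treat each read as an independent draw. Without molecular identifiers several reads can stem from 1 molecule, so the intervals may be too narrow. Genes that reached 1 TPM in each library were called detected. By that rule 7 of the 8 genes were detected, and H2-DMb2 was not. Of 22028 protein-coding genes, 42.4% were detected. The median of the 8 mean levels was 19.2 TPM, against 8.61 TPM over the 9339 detected protein-coding genes.

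The order of levels ran from Cd74 through H2-Ab1, H2-Aa, H2-Eb1, H2-DMa, H2-DMb1 and Ciita to H2-DMb2. By these TPM, the only neighbours in that order whose ranges over the libraries overlapped were H2-Ab1 and H2-Aa. A second set of transcript tables, described with Cd74 below, kept the order in replicate 2 but not in replicate 1. In replicate 1 of that set H2-Eb1 at 16.97 TPM and H2-DMa at 16.10 stood above H2-Aa at 15.65. Ciita at 2.85 TPM likewise stood above H2-DMb1 at 2.15. The deposited bounds on TPM, whose credibility level is not stated, give a second view of the error within a library. They need not enclose the TPM given here. For Cd74 the upper bounds were 133.7 in replicate 1 and 96.3 in replicate 2, below its TPM of 135.4 and 96.82. The deposited posterior mean TPM of Cd74, 127 and 91.85, lay within its bounds. By those bounds H2-Aa and H2-Eb1 also overlapped in replicate 1, and so did H2-DMb1 and Ciita. In bulk RNA, fewer expressing cells and less RNA per cell cannot be told apart, so a low level may be a low level everywhere or a high level in few cells.

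**Figure D1:**
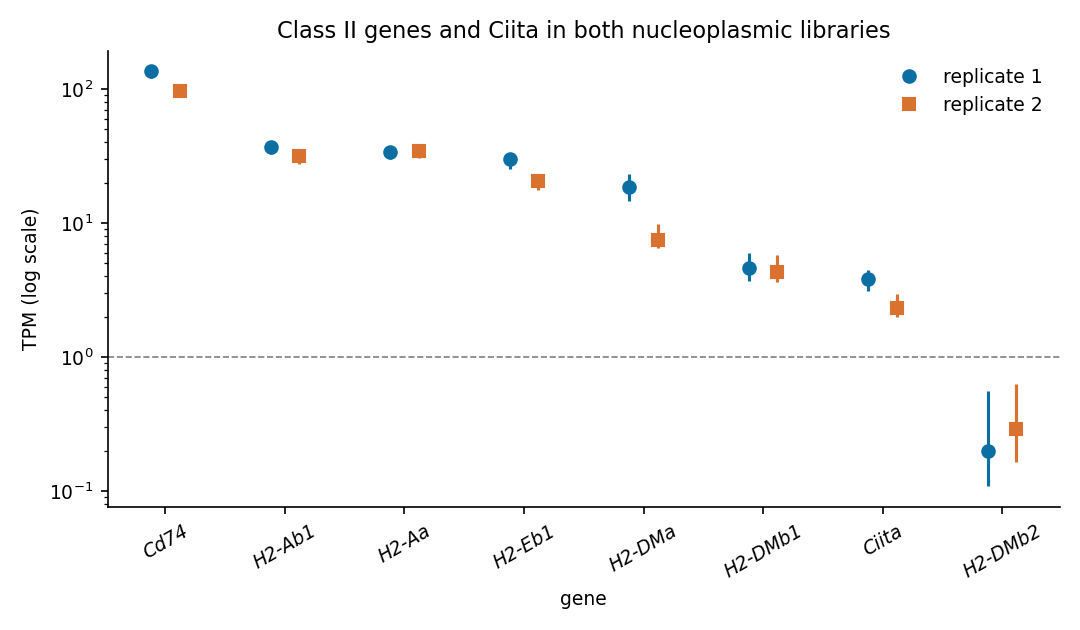
Level of each gene in TPM on a log scale, with replicate 1 as circles and replicate 2 as squares. Vertical lines are the deposited credibility bounds and the dashed line is the detection limit of 1 TPM. The bounds need not enclose the TPM, and the Cd74 points lie above theirs in both libraries. Cd74 stands highest in both libraries and H2-DMb2 lies below the limit in both.

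Cd74, the invariant chain, was the most abundant of the group. It lies at chr18:60803848-60812652 (mm10, plus strand). It had 2190 expected counts in replicate 1 and 1996 in replicate 2, or 135 and 96.8 TPM. Its mean was 116 ± 27.3 TPM (SD, n = 2), above 96.5% of the detected protein-coding genes. Cd74 alone took 49.99% of all counts on the 8 genes in replicate 1 and 48.06% in replicate 2. In TPM it stood 3.65 times as high as H2-Ab1 in replicate 1 and 3.05 times in replicate 2.

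Cd74 makes a short and a long form of the invariant chain. The long form carries an added thyroglobulin-type domain that inhibits cathepsin L. The annotation holds this difference as exon 7 of Cd74-202, which is 192 bases long and absent from Cd74-201. The coding sequence is 837 bases in Cd74-202 and 645 in Cd74-201. Cd74-201, the short form, took 57.3% of the gene's TPM in replicate 1 and 68.5% in replicate 2. Cd74-202 took 24.6% and 19.0% in the same order of replicates. The long form was thus 30.0% of both coding forms in replicate 1 and 21.7% in replicate 2. The second set of transcript tables was made from the reads directly, and there the long form was 39.7% and 31.9%. The short form was the larger of both in each library and each kind of table.

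H2-Ab1 and H2-Aa encode the beta and alpha chains of H2-A, the class II molecule that C57BL/6 mice display. H2-Ab1, at chr17:34257689-34269419 on the plus strand, had 518 counts and 37.1 TPM in replicate 1 and 504 counts and 31.8 TPM in replicate 2. Its mean was 34.4 ± 3.75 TPM. H2-Aa, at chr17:34282744-34287823 on the minus strand, had 742 counts and 34.1 TPM in replicate 1 and 866 counts and 34.4 TPM in replicate 2. Its mean was 34.2 ± 0.205 TPM. The alpha chain gene was at 0.919 of the beta chain gene's TPM in replicate 1 and at 1.08 in replicate 2, so neither chain was the higher in both libraries. H2-Ab1 lay above 84.9% of the detected protein-coding genes and H2-Aa above 84.8%.

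H2-Eb1 encodes the beta chain of H2-E, the other classical class II molecule. It lies at chr17:34305867-34316674 on the plus strand. It had 432 counts and 30.1 TPM in replicate 1 and 363 counts and 20.7 TPM in replicate 2, with a mean of 25.4 ± 6.69 TPM. Its level was 0.813 of that of H2-Ab1 in replicate 1 and 0.651 in replicate 2. In C57BL/6 mice the alpha chain gene of H2-E is known to have lost its promoter, so the beta chain has no partner to reach the surface with. The annotation calls that gene H2-Ea-ps, a polymorphic pseudogene, and it had 0 and 3 counts. H2-Eb1 RNA was thus among the detected genes while its partner's was at 0.00 TPM in replicate 1 and 0.17 TPM in replicate 2.

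The transcripts of these chains differed in how much annotated intron they kept. H2-Aa-201, the full coding form of 1128 bases, took 77.1% of the gene's TPM in replicate 1 and 76.1% in replicate 2. H2-Aa-203, a retained-intron transcript of 3223 bases that keeps 2436 bases of intron, took 18.8% and 15.2%. Counted as reads and not per length, the same transcript held 327.71 and 328.2 expected counts, or 44.2% and 37.9% of the gene. H2-Ab1-201, the full coding form of the beta chain, took 65.6% in replicate 1 and 52.9% in replicate 2, and 4 retained-intron transcripts together took 34.4% and 43.3%.

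For H2-Eb1 the coding forms were the smallest class by TPM in the first tables. H2-Eb1-205, which the annotation classes as a target of nonsense-mediated decay, took 35.6% of the gene's TPM in replicate 1 and 67.0% in replicate 2. Coding forms took 21.9% and 8.26%, and retained-intron transcripts took 42.5% and 24.8%. The second tables gave H2-Eb1-205 18.1% and 52.6%, coding forms 28.1% and 19.6%, and retained-intron transcripts 53.8% and 27.8%. By expected counts the coding forms held 35.1% and 12.8%. Its second exon starts 53 bases later than in H2-Eb1-203, a full coding form, and its coding sequence is 276 bases against 792. Its last exon is 326 bases and that of H2-Eb1-203 is 801. The other annotated coding form, H2-Eb1-201, shares the short last exon but has an exon 4 that is 127 bases longer. The annotation holds 0 transcripts that join the short last exon to exons 2 and 4 of H2-Eb1-203, so reads of such an RNA would have no transcript of their own. How reads were shared between these transcripts was not tested.

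The promoters of class II genes carry the elements that Ciita's partners read. RefSeq promoter windows on GRCm38.p6, the assembly known as mm10, were matched for 5 of the 8 genes, and H2-DMa had a pair of them. The stretches below run from 130 to 31 bases before the RefSeq start, 5′ to 3′ on the strand of the gene, and are shown so that the shared layout can be read. The RefSeq start of H2-DMb2 lies 1942 bases inside the annotated span of the gene, so its stretch is also inside that span. The RefSeq starts of H2-DMa lie 3291 and 5977 bases inside its span. Capitals mark an AAC, the TGATG or TGACG that follows it, and ATTGG, the core of the Y box that NF-Y binds. The AAC, TGATG and TGACG are matches of letters, and their place within the boxes was not tested. TGATG and TGACG need not belong to the same element.
H2-Aa, chr17:34287854-34287953, minus strand: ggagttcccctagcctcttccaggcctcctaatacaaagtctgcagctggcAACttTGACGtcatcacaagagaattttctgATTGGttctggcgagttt
H2-Eb1, chr17:34305737-34305836, plus strand: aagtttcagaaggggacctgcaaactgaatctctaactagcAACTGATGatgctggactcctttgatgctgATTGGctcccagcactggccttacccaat
H2-DMb2, chr17:34145119-34145218, plus strand: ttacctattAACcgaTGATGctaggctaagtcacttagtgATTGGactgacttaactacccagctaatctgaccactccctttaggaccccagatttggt

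The AAC started 31 bases before ATTGG in H2-Aa and H2-DMb2 and 30 bases before it in H2-Eb1. ATTGG itself began 48, 90 and 59 bases before the start of H2-Aa, H2-DMb2 and H2-Eb1. H2-DMb1 held the same pair 31 bases apart. Its stretch overlaps an annotated exon of the gene and is not printed. An AAC starting 28 to 31 bases before ATTGG on the gene's strand was thus found in 4 of the 5 genes with a window. Of 32851 RefSeq windows, 0.980% held that pair in the 250 bases before the start, a spacing that was set after these sequences were seen. ATTGG on either strand stood in 33.8% of the windows, and AACNGATG on either strand in 1.98%. Neither window of H2-DMa held the pair. The pair was present in the detected H2-Aa, H2-Eb1 and H2-DMb1 and also in H2-DMb2, which was not detected. A match of letters is a description of the window and not a measured binding site.

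H2-DMa encodes the alpha chain of H2-DM and lies at chr17:34119541-34139101 on the plus strand. It had 174 expected counts and 18.7 TPM in replicate 1 and 129.9 counts and 7.41 TPM in replicate 2, with a mean of 13.1 ± 7.99 TPM. This was the widest spread between the libraries, relative to its mean, among the 7 detected genes. The counts differed less than the TPM did. The transcript tables show which transcript held most of the difference. H2-DMa-203, a processed transcript of 350 bases, held 15.73 counts in replicate 1 and 0 in replicate 2, and its short length turned those counts into 7.31 TPM. Without it the gene stood at 11.4 and 7.42 TPM. The 2 full coding forms, H2-DMa-201 and H2-DMa-205, summed to 4.75 TPM in replicate 1 and 3.72 TPM in replicate 2. Processed transcripts took 70.7% of the gene's TPM in replicate 1 and 46.2% in replicate 2.

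H2-DMa also shares ground with Brd2, a bromodomain gene on the opposite strand, over 3094 bases. Brd2 had 8833.62 counts in replicate 1 and 6055.75 in replicate 2. Of the annotated H2-DMa transcripts, 2 start inside Brd2, and these held 40.24 and 27.87 counts. The antisense-class gene CR974462.3, on the strand of H2-DMa, had 45.23 and 9.38 counts within the span, CR974462.4 had 24 and 11, and the pseudogene Gm20493 had 1 and 0. The sources used here do not say if reads were counted by strand, so reads of Brd2 and of H2-DMa cannot be told apart where they overlap, and the H2-DMa level is uncertain by that much.

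H2-DMb1 and H2-DMb2 encode alternative beta chains of H2-DM. H2-DMb1, at chr17:34153072-34160230 on the plus strand, had 87 counts and 4.65 TPM in replicate 1 and 109 counts and 4.34 TPM in replicate 2, with a mean of 4.50 ± 0.219 TPM. H2-DMb2, at chr17:34143307-34151555 on the same strand, had 4 counts and 0.20 TPM in replicate 1 and 7.38 counts and 0.29 TPM in replicate 2, with a mean of 0.245 ± 0.0636 TPM. H2-DMb1 stood 23.3 times as high as H2-DMb2 in replicate 1 and 15.0 times in replicate 2, with counts of 4 and 7.38 behind the lower value. The ratio was smaller in both libraries of the second tables. H2-DMb1 stood there at 2.15 and 2.69 TPM and H2-DMb2 at 0.334 and 0.335. In the first transcript tables all H2-DMb2 counts fell on H2-DMb2-203. In the second tables that transcript had 13.4 estimated counts in replicate 1 and 0 in replicate 2, and H2-DMb2-202 had 5.11 and 28.8. The genes are close copies. The coding sequences of H2-DMb1-201 and H2-DMb2-201 are 783 bases each, differ at 32 bases and are 95.9% identical, with an identical run of up to 221 bases. Of all 31-base stretches of H2-DMb1-201, 37.6% also occur in an H2-DMb2 transcript, so the split of reads between the genes is uncertain. The differences cluster in coding bases 206 to 295, counted from the A of the start codon, where 19 of the 32 lie. That stretch is shown from the GENCODE M21 transcripts (GRCm38, chromosome 17, plus strand), because it holds the densest run of differences between the genes. Capitals mark the bases that differ.
H2-DMb1-201: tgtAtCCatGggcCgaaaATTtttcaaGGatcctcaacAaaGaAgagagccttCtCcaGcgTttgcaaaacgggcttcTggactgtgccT
H2-DMb2-201: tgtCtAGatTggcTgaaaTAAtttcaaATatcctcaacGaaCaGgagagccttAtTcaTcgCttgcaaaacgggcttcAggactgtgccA

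H2-DMa stood 4.02 times as high as H2-DMb1 in TPM in replicate 1 and 1.71 times in replicate 2. Counting the 2 full coding forms of H2-DMa alone, the alpha chain was at 4.75 TPM in replicate 1 and 3.72 in replicate 2. H2-DMb1-201, the coding form of H2-DMb1, stood at 4.22 and 4.34 TPM. In the second tables H2-DMa-201 stood at 0.467 and 0.401 TPM and H2-DMa-205 at 1.23 and 1.14. H2-DMb1-201 stood there at 1.91 and 2.00 TPM, above the sum of those H2-DMa forms in both libraries. H2-DMb1-201 took 90.8% of its gene's TPM in replicate 1 and 100% in replicate 2.

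Ciita, the transactivator, lies at chr16:10480059-10528418 on the plus strand. It had 234 counts and 3.82 TPM in replicate 1 and 178 counts and 2.31 TPM in replicate 2, with a mean of 3.07 ± 1.07 TPM. Only 18.9% of the detected protein-coding genes stood lower. Cd74, one of its targets, was 35.4 times as high as Ciita in TPM in replicate 1 and 41.9 times in replicate 2. H2-Ab1 was 9.70 and 13.7 times as high. Dexi, on the opposite strand, is annotated over 25888 bases of the Ciita span and had 59 counts in replicate 1 and 31 in replicate 2, and reads of the pair cannot be told apart where their exons overlap.

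Ciita is known to be transcribed from several promoters, used to different extents by dendritic cells, lymphocytes and cells under interferon gamma. The annotation has 8 Ciita transcripts in 3 groups by where they start, and it does not name the promoters. The first group begins the gene, the second starts 8.119 kb further on and the third 9.687 kb on. The first group held 89.98 expected counts in replicate 1 and 47.32 in replicate 2, or 38.5% and 26.6% of the gene. The second held 117.35 and 113.68 counts, or 50.2% and 63.9%. The third held 26.66 and 17 counts, or 11.4% and 9.55%, of which Ciita-204 alone had 12 and 17. The second tables gave 31.02% and 19.0% to the first group, 55.1% and 71.2% to the second, and 13.9% and 9.75% to the third. By counts, then, the second group was the largest and the third the smallest in each library and each kind of table.

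Per length the order differed between libraries and tables. In the first tables the first group took 38.6% of Ciita TPM in replicate 1 and 30.1% in replicate 2, the second 34.98% and 44.95%, and the third 26.4% and 24.97%. In the second tables the first group took 21.95% and 20.4%, the second 29.3% and 47.9%, and the third 48.8% and 31.6%. Ciita-201, of the second group, is 6007 bases long and is the only transcript with the last 1992 bases of the gene, so reads from that end count for the second group wherever transcription began. The exons that tell the starts apart are short. The first exon is 368 bases in Ciita-205, 146 in Ciita-201 and 84 in Ciita-203, and 7 of the 8 transcripts share the next one of Ciita-201. Ciita-205, a full coding form of the first group, had 56.21 counts in replicate 1 and 6.82 in replicate 2, while Ciita-201 had 93.78 and 94.83. Ciita-207, a retained-intron transcript of the first group, had 33.77 and 33.73.

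**Figure D2:**
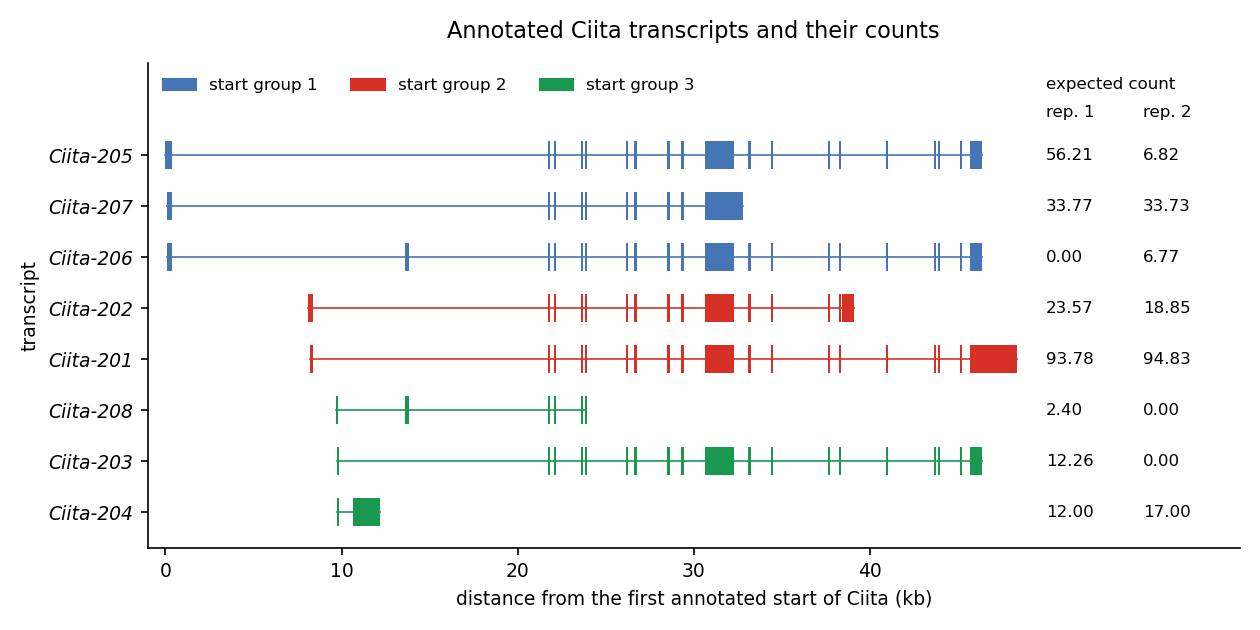
The 8 annotated Ciita transcripts by distance from the first start in kb, with exons as boxes, introns as lines and the start groups in colour. The columns at the right give expected counts in replicate 1 and replicate 2. Ciita-201 has the most counts in both libraries, and the last 1992 bases of its long last exon are in no other transcript.

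Shares of transcript classes over the whole group are described per gene. The 8 genes have 44 annotated transcripts, of which 33 had counts in replicate 1 and 31 in replicate 2. Retained-intron transcripts took 18.2% of TPM in replicate 1 and 12.5% in replicate 2 for Cd74, and 17.2% and 23.2% for Ciita. They took 9.17% and 0% for H2-DMb1 and 0% in both libraries for H2-DMa. As background, 4397 protein-coding genes with such a transcript and a mean TPM of at least 5 had a median retained-intron share of 26.8%, with quartiles of 13.9% and 41.0%. The 5 members among those genes had a median of 16.97%. Both medians are from the first tables. In the second tables each of the 5 had a higher share in both libraries, such as 39.3% and 29.8% for Cd74. The background was not computed there, so the lower median of the members holds for the first tables alone. In nuclear RNA a transcript classed as retained intron cannot be told apart from RNA that is not yet spliced.

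**Figure D3:**
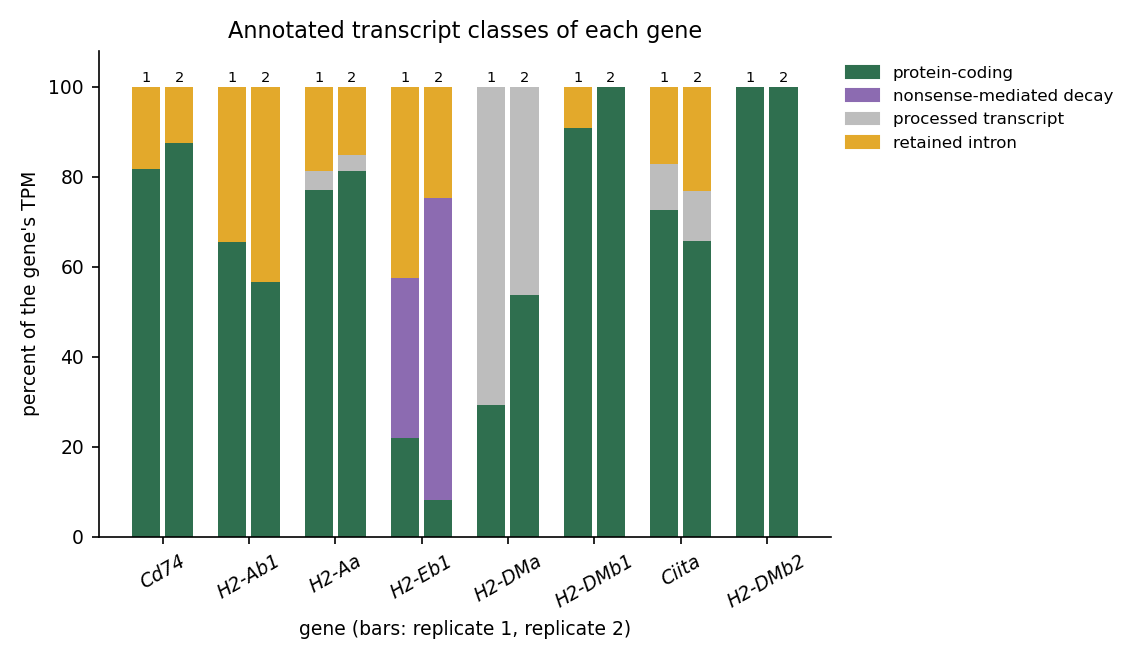
Percent of each gene's TPM in its annotated transcript classes, with replicate 1 and replicate 2 as neighbouring bars. H2-Eb1 is the gene with a nonsense-mediated decay share, 35.6% and 67.0%, and H2-DMa is the gene with the largest processed-transcript share, 70.7% and 46.2%.

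The libraries were compared with each other by the log2 ratio of replicate 2 over replicate 1 after TMM scaling of the counts, where the mean count was 50 or more. This ratio compares 2 libraries and has no replicate check. Of the 7 class II genes and Ciita that reached 50 counts, 0 were beyond 2-fold in either direction and 0 were beyond 1.5-fold. Of the 10444 genes at that level, 8.84% were beyond 2-fold and 29.6% beyond 1.5-fold. H2-DMb1 had the highest ratio at 0.38, followed by H2-Aa at 0.29 and H2-Ab1 at 0.03. Cd74 was at -0.07, H2-Eb1 at -0.19, Ciita at -0.33 and H2-DMa lowest at -0.36. The median was -0.07 against -0.03 for all genes at that level, whose quartiles were -0.39 and 0.37.

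Ratios of TPM ran lower. Their median was -0.48 for the 7 genes and -0.44 for all 10444, and H2-DMa at -1.34 was then beyond 2-fold, as were 16.9% of all genes. Nuclear protein-coding genes together held 20.2% of all TPM in replicate 2 and 27.6% in replicate 1. How many of them had a lower TPM in replicate 2 was not counted.

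**Figure D4:**
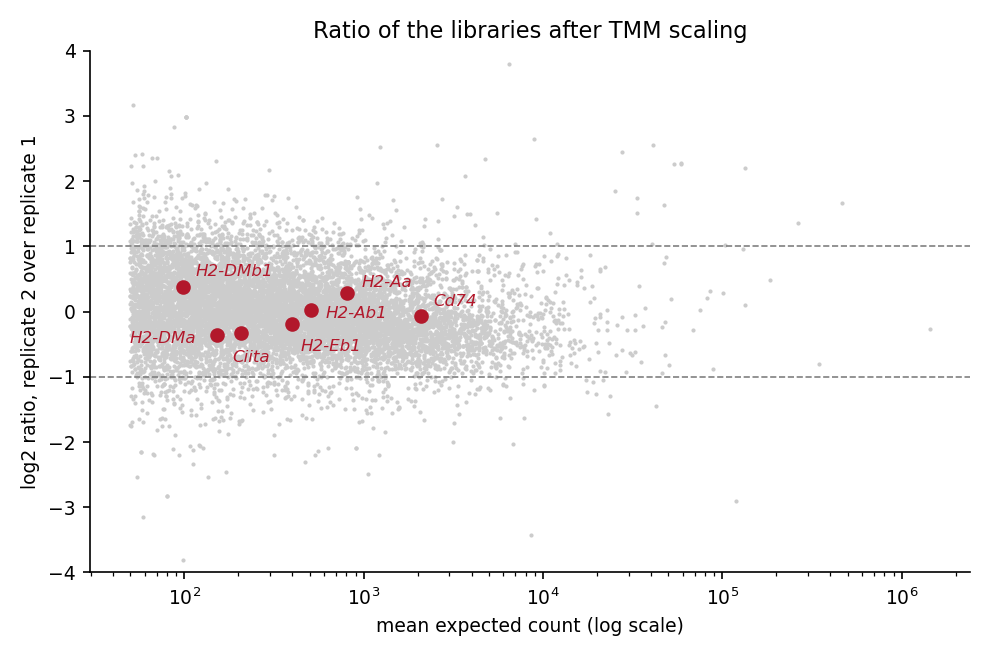
Log2 ratio of replicate 2 over replicate 1 after TMM scaling against the mean expected count on a log scale, for genes whose mean count was 50 or more (grey). The 7 named genes (red) lie between -0.36 and 0.38, and dashed lines mark 2-fold; 8 grey genes have a ratio beyond 4 in either direction and are not drawn.

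The 6 class II genes of the group other than Cd74 sit in 1 stretch of chromosome 17. From the start of H2-DMa to the end of H2-Ea-ps it spans 225 kb and holds 19 annotated genes, of which 12 are protein-coding. Of those, 9 were detected and 3 were not, beside 42.4% detected among all protein-coding genes. The 3 were H2-DMb2, H2-Ob and H2-Eb2. H2-Ob, the beta chain of the H2-DM inhibitor H2-DO, ends 3.275 kb before H2-Ab1 begins, and it had 6 counts in replicate 1 and 14 in replicate 2, or 0.19 and 0.39 TPM. Between H2-DMb1 and H2-Ob lie class I pathway genes, which cut and import peptides. Of these the peptide transporter genes Tap1 and Tap2 stood at 30.2 and 27.4 TPM and at 18.4 and 15.5 TPM in replicates 1 and 2. The immunoproteasome genes Psmb8 and Psmb9 stood at 7.23 and 6.38 TPM and at 5.38 and 3.59 TPM. Gm20513, antisense to H2-Eb1 over 2204 bases, had 3 counts in each library, and the microRNA gene Mir5107 inside Cd74 had 0.

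**Figure D5:**
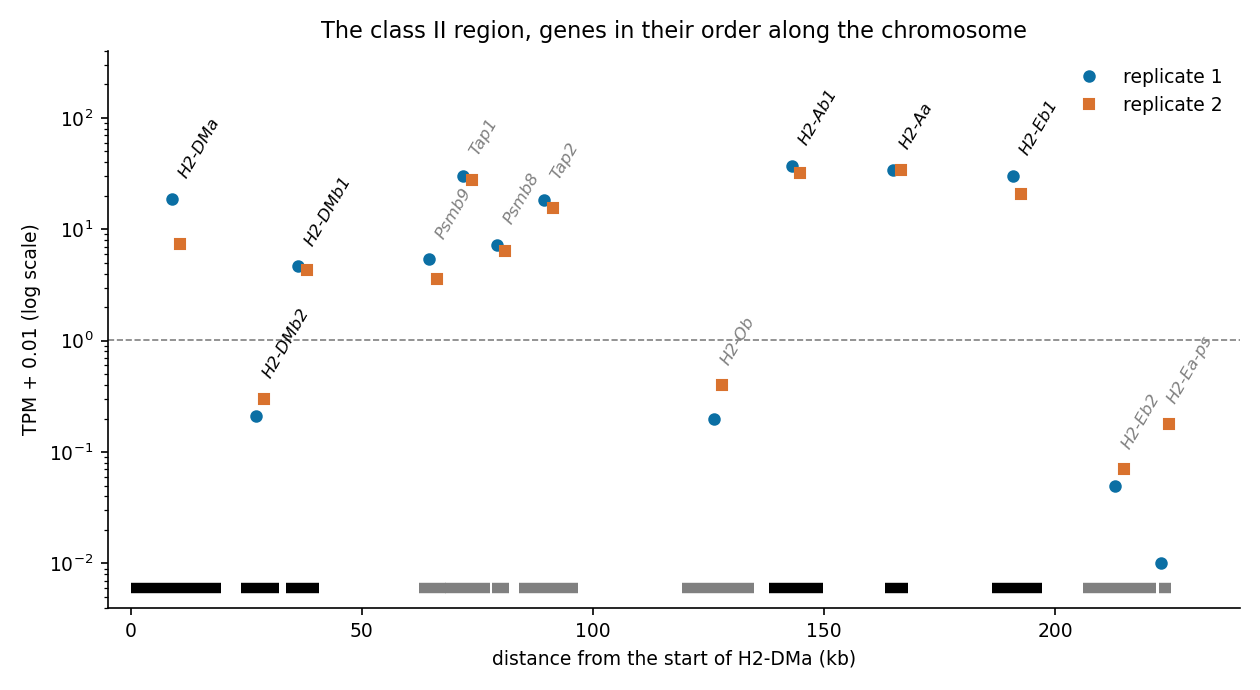
Level of the protein-coding genes and H2-Ea-ps along the class II stretch, as TPM + 0.01 on a log scale against distance from the start of H2-DMa in kb. Bars at the bottom are gene spans, with the genes of the group in black and others in grey; the dashed line is 1 TPM. H2-DMb2, H2-Ob, H2-Eb2 and H2-Ea-ps lie below the line in both libraries, and the other genes drawn lie above it.

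The 4 further class II genes of the annotation were not detected. H2-Oa, the alpha chain of H2-DO, had 2 and 5 counts, H2-Eb2 had 2 and 4, and H2-Ea-ps had 0 and 3. A count of 0 allows up to 3 reads, or 1.89e-05% of replicate 1. The AAC and ATTGG pair described above stood in the windows of H2-Oa, H2-Ob and H2-Eb2 as well, which were the 3 of these genes with a window. For H2-Ob the tables differed. The second tables gave it 778 and 948 estimated counts, or 18.5 and 14.8 TPM, of which 772 and 936 were on H2-Ob-207, a retained-intron transcript of 1141 bases. The first transcript tables gave that transcript 0 and 2.76 counts. The cause of the difference was not tested, and the H2-Ob level is uncertain.

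The factors that hold Ciita on the promoter were measured next. Of the 7 genes of the RFX, NF-Y and CREB list, 6 were detected, beside 42.4% of protein-coding genes. The count was 7 in the second tables and 3 at a limit of 5 TPM. Among the NF-Y subunits, which bind the Y box, Nfya stood at 69.4 TPM in replicate 1 and 39.8 in replicate 2, Nfyc at 5.02 and 3.25, and Nfyb at 1.69 and 2.95. Creb1, which binds the X2 box, stood at 51.1 and 24.3 TPM. Of the RFX subunits, which bind the X box, Rfx5 stood at 9.37 and 5.87 TPM and Rfxank at 3.69 and 3.15. Rfxap, the third subunit, had 11 and 16 counts, or 0.59 and 1.16 TPM, and was the 1 gene of the list below the limit. Nfyb was the 1 gene of the list beyond 2-fold between the libraries, with a log2 ratio of 1.11 from 55 and 114 counts.

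Of 12 genes that regulate Ciita transcription, 11 were detected, beside 42.4% of protein-coding genes. Irf1, an interferon regulatory factor that acts on the interferon-responsive Ciita promoter, was the highest at 1094 TPM in replicate 1 and 395 in replicate 2. It was the 1 gene of the list beyond 2-fold, with a log2 ratio of -1.08. Irf4 was the lowest, at 0.84 and 0.62 TPM. All 6 genes of the coactivator list were detected. By mean level they ran from Ep300, a histone acetyltransferase, at 39.9 and 31.7 TPM to Carm1, an arginine methyltransferase, at 8.51 and 7.54.

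The list of genes that handle class II in the endosome ranged widely in level, with a median above that of the class II genes. All 5 genes of that list were detected, beside 42.4% of protein-coding genes. Their median was 128 TPM, against 19.2 for the 8 class II genes and Ciita and 8.61 for detected protein-coding genes. Ctss, cathepsin S, which makes the last cuts in the invariant chain, stood at 548 and 562 TPM. Ifi30, the thiol reductase GILT, was the lowest at 5.28 and 8.04, below Cd74, H2-Ab1, H2-Aa and H2-Eb1 in both libraries. The annotation classes Ifi30 as a processed transcript and not as protein-coding. All 3 turnover genes found in the annotation were detected. Cd83, which keeps class II at the surface, stood at 530 TPM in replicate 1 and 294 in replicate 2, and March1, the ligase that marks class II for removal, was the lowest by mean level, at 14.4 and 14.0. All 8 class I genes were detected, with H2-K1 highest by mean level, at 1571 and 1416 TPM, and Psmb9 lowest. B2m, the light chain of class I, was the 1 gene of that list beyond 2-fold, with a log2 ratio of 1.502.

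Class II genes are also made by dendritic cells and B cells, which a culture from bone marrow could hold. All 8 macrophage markers were detected, beside 42.4% of protein-coding genes. They summed to 3025 TPM in replicate 1 and 3706 in replicate 2, with Lyz2 highest and Fcgr1 lowest. Lyz2 was the 1 gene of that list beyond 2-fold, with a log2 ratio of 1.03. Of 6 B cell markers 0 were detected, and they summed to 0.33 and 0.44 TPM, or 7 and 15 counts. Cd79a was at 0 counts in both libraries, and Cd79b was the highest by mean level, at 0.31 and 0.10 TPM. Of 8 dendritic cell markers 0 were detected, and they summed to 2.22 and 3.37 TPM, or 104 and 161 counts, with Siglech highest by mean level, at 0.41 and 0.97 TPM, and Cd209a lowest at 0.00 and 0.04. Of 4 T cell markers 0 were detected, with Cd3e and Cd3g at 0 counts in both libraries, and Lck highest. Of 5 neutrophil markers 1 was detected, S100a9 at 6 and 7 counts, and 0 were detected in the second tables or at a limit of 5 TPM. These markers summed to 2.29 and 4.97 TPM, with Ngp highest by mean level and Elane lowest. In the second tables the B cell markers summed to 1.90 and 0.936 TPM and the dendritic cell markers to 2.48 and 2.51. The T cell markers summed to 1.48 and 0.866 TPM there. Cd8a was the highest of them, at 1.14 and 0.529 TPM, and Cd3g had 30.2 and 39.3 estimated counts. Marker levels do not measure how many such cells were present or how much class II RNA they held. The part of such cells in the class II levels was not tested.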

How the data were processed

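Per the deposited text files, the 3 tables of each library use mm10 and GENCODE M21, while their tools were not given in the sources used here. In the authors' deposited gene tables are expected counts and TPM, with credibility bounds, per the file headers. The first deposited transcript tables add, per the file headers, the percent of TPM that each transcript takes within its gene. In the second deposited transcript tables are estimated counts and TPM made from the reads directly, which were summed per gene. Features without a gene name held 1.19% of expected counts in replicate 1 and 0.213% in replicate 2 and were left out. Expected counts were rounded, and edgeR 4.0.16 under R 4.3.3 scaled them by TMM, with 0.5 counts added before the log2 ratio. The scaling was tested on simulated data. DESeq2 1.42.0 gave the size factors tried as another scaling.

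With 1 group of 2 libraries no condition was compared and no p-value was computed. Depth was 15846212 and 14874879 expected counts on annotated genes. The genes and lists were chosen with earlier results of these data known. All 8 genes were named, with every gene of the lists of class II relatives and of RFX, NF-Y and CREB factors, every gene inside the span of 1 of the 8, and their class I neighbours. Of the other lists the highest, the lowest and those beyond 2-fold were named, and markers at 0 counts in both libraries. Sequences were read from RefSeq promoter windows and GENCODE M21 transcripts.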

Additional observations from a re-analysis of the deposited data

How the results depend on the processing

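The count of 7 detected genes was 7 in the second tables, with TPM rescaled over protein-coding genes and without either replicate, and 5 at a limit of 5 TPM. The median level of 19.2 TPM became 79.0 when TPM was rescaled to nuclear protein-coding genes, which by construction raises each such value. It was 12.5 in the second tables, 18.8 by posterior means, and ranged from 14.0 to 24.4 without either replicate. The median log2 ratio of -0.07 became -0.48 as a ratio of TPM, where that of all genes was -0.44; it stayed between -0.07 and -0.02 under library size, DESeq2 factors, the second tables, no filter on counts and a prior of 2. The count beyond 2-fold was 0 in each setting but the ratio of TPM, where it was 1, H2-DMa. Levels of 6 of the 8 single genes moved beyond their SD in the second tables, as did 7 of the 13 single transcript shares, and 8 of 8 levels moved with the rescaled TPM. Of the 12 other lists, the detected count moved beyond 1.5 times in 2 at a limit of 5 TPM (RFX, NF-Y and CREB factors, and neutrophil markers) and in 2 in the second tables (class II relatives and neutrophil markers). No paired analysis was possible because the libraries form a single group. With 4 to 7.38 counts, H2-DMb2 is limited by depth, and with 178 to 234 counts Ciita's transcript shares rest on few reads.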
